A study of Homo sapiens with 8 samples.

Results

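The genes described here are 37 transporters, channels and transport subunits through which enterocytes take up or release sugars, amino acids and peptides, short-chain fatty acids, bile acids, ions and water, metals and vitamins. They were taken by symbol from the platform annotation of the array. Of the 37, 33 had at least 1 named feature and were measured, over 61 of the 44290 features and among 17969 genes in all. SLC6A19, SLC7A7, SLC16A1 and SLC19A1 had no named feature and were not analysed here.

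The samples were Caco-2 cells, a line from a human colorectal adenocarcinoma that differentiates into a polarised epithelium with enterocyte features, so every value is that of a single line. Monolayers grown for 18 days in M199 with serum, non-essential amino acids and antibiotics were given either a suspension of the bacterium Lactobacillus plantarum MB452, set to an optical density of 0.9 in M199 with non-essential amino acids, or that medium without bacteria, for 10 h. There were 2 control pools and 2 MB452 pools, A and B, each of RNA from 3 wells, and every pool was labelled with Cy5 and hybridised to 1 Agilent whole human genome slide against a Cy3-labelled reference made from all wells. The protocol describes that single reference for all slides, while the short channel names speak of a control reference on control slides and an MB452 reference on MB452 slides. If the reference did differ between groups, a difference between groups would not be that of the pools alone, and these values cannot tell. Each slide was scanned at a high and a low voltage.

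Absorptive cells move nutrients in series. An apical carrier, often driven by the sodium gradient that the sodium pump keeps up, brings the solute in from the lumen, and a different carrier in the basolateral membrane passes it on to the blood. Many of these proteins are named solute carriers (SLC), and Caco-2 monolayers are widely used as a model of such transport.

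The deposited values are log2 ratios of a pool over the common reference. A ratio of 0 means that the pool and the reference were equally bright, so the values rank pools within a gene and give no level of 1 gene against another. The value of a pool is the mean of both scans, features of the same gene were averaged, and a difference is MB452 minus control on the log2 scale with its moderated standard error (SE) from limma, n = 2 pools in each group. In bulk RNA, less transcript in each cell and fewer cells that carry it cannot be told apart. The pools of a group held RNA from different wells, but no source states that these came from separate passages or experiments. The p-values therefore measure the spread between these pools and not that between experiments. In limma that spread is moderated with the spread of all genes, so the SE of a gene does not come from its own pools alone.

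Transporter genes were close to level between MB452-treated and control Caco-2 cells. None of the 33 passed the threshold of a fold change over 1.2 with an unadjusted moderated p under 0.05 in limma, that is 0 higher and 0 lower, where 1.91% of all genes passed it, 1.04% as higher and 0.868% as lower. A count at the unadjusted p alone gave 1 member, the vitamin C carrier SLC23A1, whose fold change was just under 1.2. The lowest adjusted p of a member was 0.743, and no gene of the array reached an adjusted p under 0.05 in limma, the lowest being 0.176. Before adjustment 1166 genes (6.49%) were under 0.05. Of the 61 member features taken singly, 0 passed the threshold.

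The differences of the members spread over both signs, with 18 above and 15 below 0. Their median was 0.0030 on the log2 scale, beside -0.0093 over all genes, and the median size of a difference was 0.061, beside 0.060 over all genes. A difference over 0.1 in size was found for 7 of 33 members (21.2%) and for 29.2% of all genes. For 20 of the 33 the moderated 95% interval lay wholly within a fold change of 1.2 in either direction (0.263 on the log2 scale). The same held for 11020 of all 17969 genes, a share near that of the members. The 20 include TFRC, whose only feature held, in the high scan of all 4 slides, the repeated value taken here as saturation. The TFRC interval thus rests partly on no measurement. A feature each of ATP1B1 and SLC40A1, also among the 20, held that value in the high scan of all 4 slides. For the other 13 these 4 slides leave a larger change possible.

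The spread between pools of 1 group was of the same size as these differences. In 20 of 33 members (60.6%) the control pools differed from each other by more than the group means did, as in 61.3% of all genes. The gap between the control pools had a median of 0.104 over the members, against 0.078 between the MB452 pools.

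**Figure D1:**
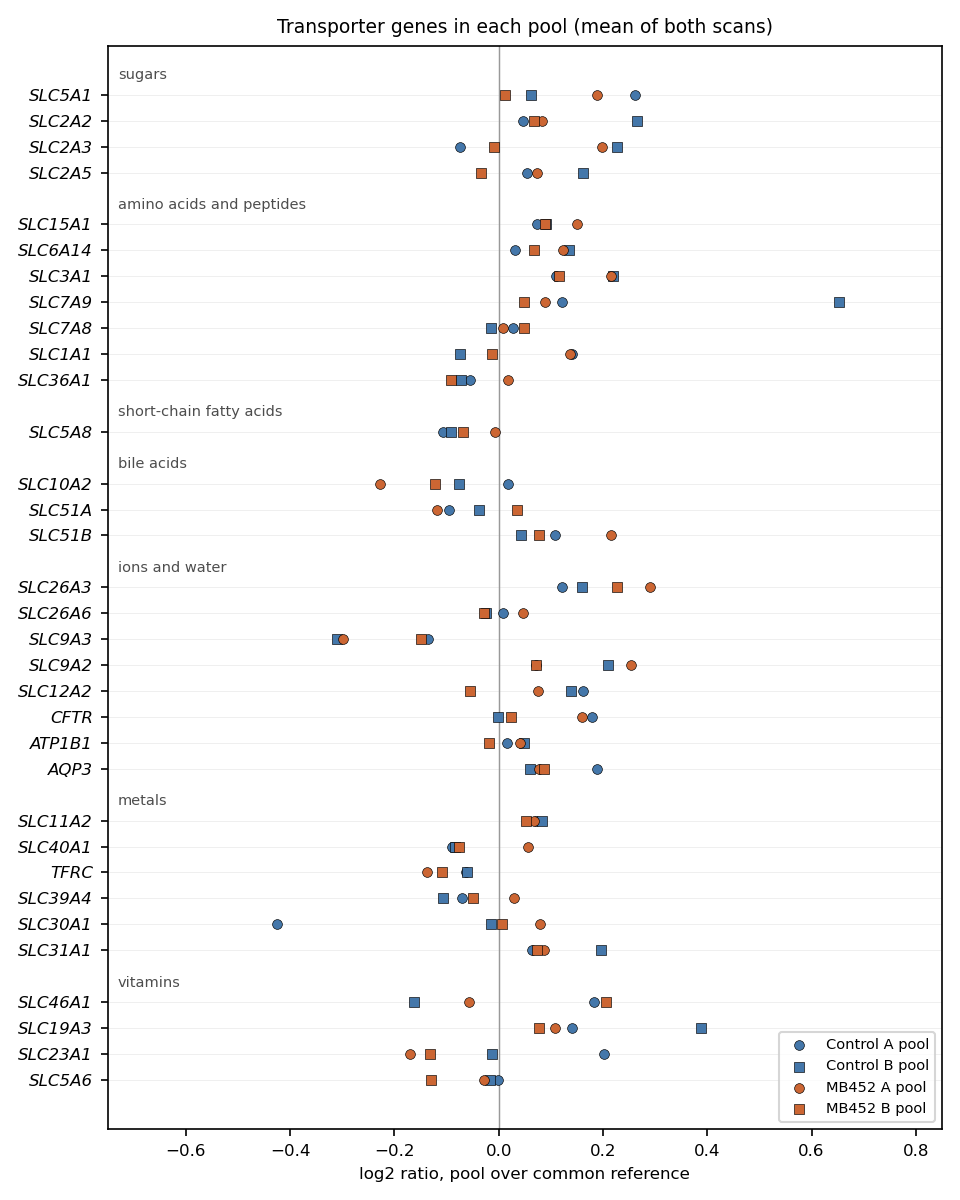
Log2 ratio of each pool over the common reference (horizontal axis) for the 33 measured transporter genes, ordered by class (vertical axis), each point being the mean of the high and low scan of 1 slide. Most genes have all 4 pools close together with the groups mixed, while SLC7A9 has 1 control pool at 0.65 and SLC30A1 has 1 control pool at -0.43.

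**Figure D2:**
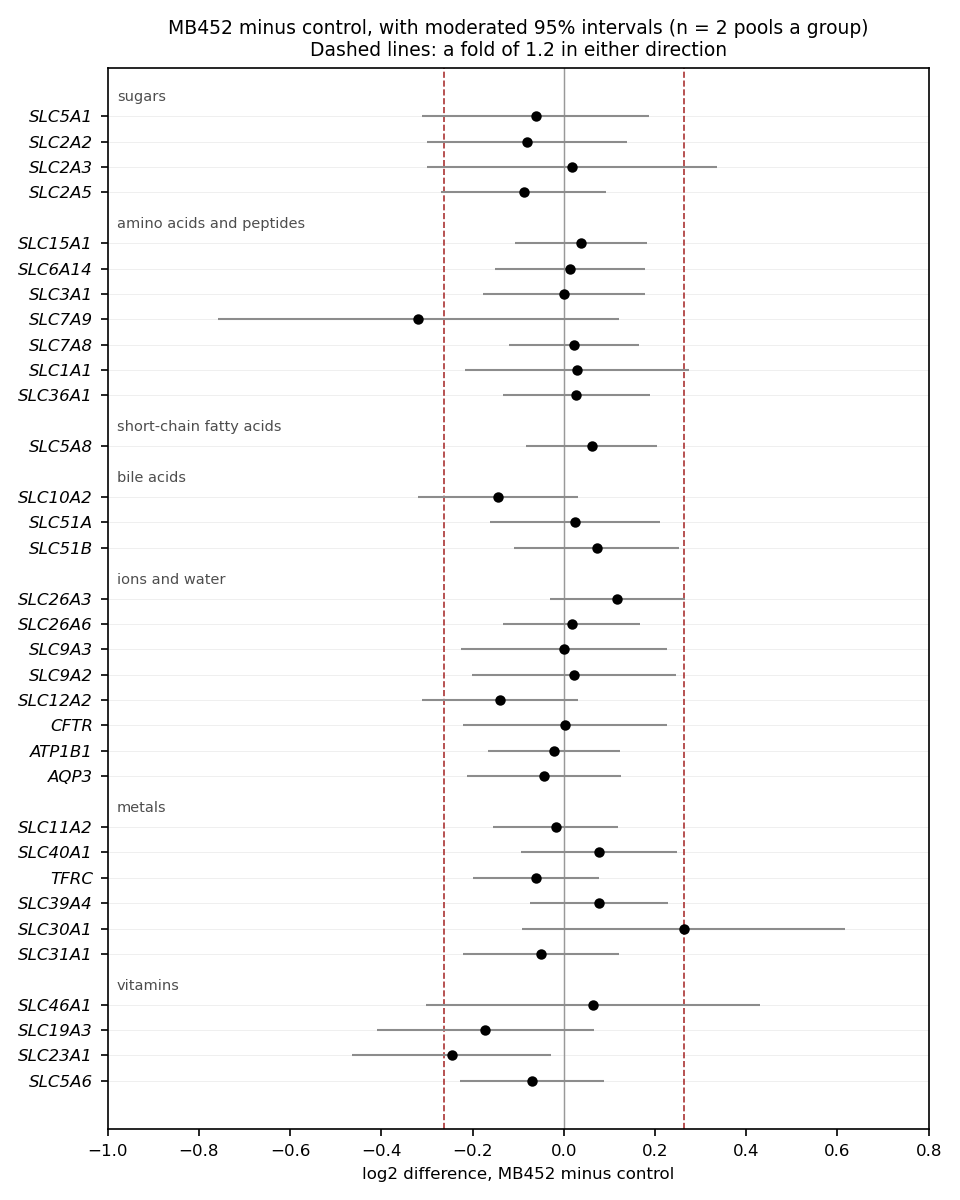
Difference between MB452 and control pools on the log2 scale (horizontal axis) with moderated 95% intervals (grey bars, n = 2 pools in each group) for the same genes by class. The interval crosses 0 for 32 of the 33 genes, SLC23A1 being the exception, and the dashed lines mark a fold change of 1.2.

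Both MB452 pools lay above both control pools in each scan for 2 members, SLC26A3 and SLC39A4, and below them in each scan for 4, SLC10A2, SLC12A2, SLC19A3 and SLC23A1. These are 2 and 4 of 33 genes, against 8.69% of all genes on the higher side and 9.79% on the lower side. The share on either side is near that of the array as a whole. These are counts of genes with features averaged, and neither of the 2 SLC19A3 features separated the groups by itself.

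Promoter windows were searched for the 3 members with the largest falls, SLC7A9, SLC23A1 and SLC19A3, and the 1 with the largest rise, SLC30A1. The windows of 2 members, SLC23A1 and SLC30A1, are shown because they hold a searched motif. The sequences are from RefSeq on GRCh38.p14 and run from 250 bases before to 50 after the start of the gene, on the minus strand of both genes. For SLC23A1, at chr5:139383248-139383547, the capitals mark GTTAAT, the core of the motif of hepatocyte nuclear factor 1 (HNF1), a transcription factor of enterocytes and hepatocytes. For SLC30A1, at chr1:211579112-211579411, they mark GAGTGCA, the reverse complement of the core TGCACNC of a metal response element, the motif of the zinc-sensing factor MTF1.
SLC23A1: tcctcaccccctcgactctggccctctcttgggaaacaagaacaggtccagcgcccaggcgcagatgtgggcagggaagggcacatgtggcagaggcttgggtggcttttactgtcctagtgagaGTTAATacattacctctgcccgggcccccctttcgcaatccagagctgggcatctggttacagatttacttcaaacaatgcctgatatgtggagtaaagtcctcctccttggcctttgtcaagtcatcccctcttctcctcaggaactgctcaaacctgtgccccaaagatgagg
SLC30A1: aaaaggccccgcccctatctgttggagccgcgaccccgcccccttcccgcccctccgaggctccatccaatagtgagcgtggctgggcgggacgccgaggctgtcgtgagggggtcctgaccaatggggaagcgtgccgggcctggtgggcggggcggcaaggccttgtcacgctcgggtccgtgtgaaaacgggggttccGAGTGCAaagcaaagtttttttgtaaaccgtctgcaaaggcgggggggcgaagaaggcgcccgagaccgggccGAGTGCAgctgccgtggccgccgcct
The SLC23A1 window holds GTTAAT with its first base at position -125 from the start, and the SLC30A1 window holds the metal response core with its first base at positions -49 and 25. GTTAAT, searched on both strands, is in 6.88% of all 35116 promoter windows of the table and in 8 of the 46 windows of the 33 members it lists (17.4%). The metal response core, searched as TGCACNC or TGCGCNC on both strands, is in 29.6% of all windows and in 15 of the 46 member windows (32.6%). The windows of SLC7A9 and SLC19A3, the other members with large differences, hold neither. A match is a description of the letters in these windows, and binding was not measured.

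Sugar transporters carry glucose and galactose through the apical sodium cotransporter SLC5A1, fructose through SLC2A5, and hexoses out to the blood through SLC2A2. The median difference of the 4 measured was -0.071, with 1 above and 3 below 0, and the control pools differed by more than the groups in all 4. That median was -0.14 without control pool A, -0.0027 without control pool B and -0.0033 when MB452 pool B was left out. SLC2A5 stood at 0.055 and 0.16 in control pools A and B and at 0.074 and -0.034 in MB452 pools A and B. Those groups overlapped, MB452 pool A lying between the control pools, and the difference was -0.088 (SE 0.071, adjusted p = 0.823 in limma). Its 2 features were of opposite sign, -0.23 and 0.050. SLC2A2 stood at 0.046 and 0.27 in the control pools and at 0.083 and 0.068 in the MB452 pools, a difference of -0.081 (SE 0.086, adjusted p = 0.847). Control pool B was the high pool, and 1 of the 2 SLC2A2 features carried this, at 0.60 and 0.43 in the high and low scan of that pool, while the other feature was at 0.047 and -0.010.

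SLC5A1 was at 0.26 and 0.063 in control pools A and B and at 0.19 and 0.013 in MB452 pools A and B. Both A pools were above both B pools, so the difference of -0.061 (SE 0.098) was small beside the spread within each group. SLC2A3, a high-affinity glucose carrier best known from neurons, was at -0.075 and 0.23 in the control pools and at 0.20 and -0.010 in the MB452 pools, a difference of 0.018 (SE 0.13). SLC2A14 is a near-identical copy of SLC2A3, and its own feature held, on all 4 slides of the high scan, the repeated value taken here as saturated. Only the low scan measured it, at -0.10. A probe of either gene may read both transcripts. Among 16 other genes of sugar handling, 0 passed the threshold in limma, 0 were under 0.05 before adjustment, and 6 were positive and 10 negative. These included lactase (LCT), at 0.069 and 0.71 in the control pools and at -0.044 and 0.0082 in the MB452 pools, with the high value in control pool B.

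Amino acid and peptide transporters had 7 measured members with a median of 0.023, 6 above and 1 below 0. The exception was SLC7A9, the light chain that joins SLC3A1 to form the apical exchanger for cystine and dibasic amino acids. SLC7A9 stood at 0.12 and 0.65 in control pools A and B and at 0.089 and 0.048 in MB452 pools A and B. Control pool B alone stood apart, in both scans (0.61 and 0.69), and control pool A was next to the MB452 pools. The difference of -0.32 was the largest in size of any member and its interval ran from -0.76 to 0.12 (SE 0.17, adjusted p = 0.807 in limma). Without control pool A it became -0.58 and passed the threshold (adjusted p = 0.0103), a fit in which the lone control pool is assumed to vary like the MB452 pools and in which 1685 genes (9.38%) passed. With the scans kept apart and the slide as a random block the difference of -0.32 passed as well (adjusted p = 0.514).

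Control pool B was more than 0.3 above the other 3 pools in 796 genes (4.43%) of the array, of which SLC7A9 was the only member. The same count was 20 genes for control pool A, 5 for MB452 pool A and 27 for MB452 pool B. LCT, the brush border vitamin B12 receptor CUBN, biotinidase (BTD), the copper pump ATP7A and the carrier chaperone EMB were other genes of the partner list in which control pool B stood out in this way. CDX2, the intestinal transcription factor taken as an enterocyte marker, was also high there, at 0.44 against -0.091 in control pool A and -0.12 and -0.016 in the MB452 pools. The part of this pool in the difference of SLC7A9 was not tested beyond leaving it out. Without control pool B, the SLC7A9 difference was -0.053 and did not pass.

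SLC3A1, the heavy chain of the same exchanger, also had its highest value in control pool B, though by little. It stood at 0.11 and 0.22 in the control pools and at 0.22 and 0.12 in the MB452 pools, a difference of 0.00087 (SE 0.070). Its high scan was above its low scan on all 4 slides by 0.13 to 0.41, so the 2 scans gave differences of 0.077 and -0.075.

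SLC15A1, the proton-coupled peptide carrier PEPT1, was at 0.073 and 0.090 in the control pools and at 0.15 and 0.089 in the MB452 pools, a difference of 0.038 (SE 0.057). The apical amino acid carrier SLC6A14 differed by 0.013, the basolateral exchanger light chain SLC7A8 by 0.023, the glutamate carrier SLC1A1 by 0.029 and the proton-coupled carrier SLC36A1 by 0.027. The intervals of SLC15A1, SLC6A14, SLC3A1, SLC7A8 and SLC36A1, with features averaged, lay within a fold change of 1.2. The 2 features of SLC6A14 were of opposite sign, at 0.12 and -0.095, so its small difference is an average over probes that disagreed. Those of SLC15A1 (0.092 and -0.015) and SLC36A1 (0.096 and -0.042) were of opposite sign as well. Among 17 measured partner genes, 0 passed in limma and 0 were under 0.05 before adjustment. The heavy chain SLC3A2, at -0.22 and -0.11 in the control pools and -0.067 and -0.057 in the MB452 pools, differed by 0.10 (SE 0.063). On 3 slides 1 of its 2 features was at the repeated value of the high scan. SLC7A5, a light chain of SLC3A2, differed by 0.14 (SE 0.086).

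SLC5A8 was the only measured carrier of short-chain fatty acids, a sodium-coupled importer of butyrate and lactate in the colon. It was at -0.11 and -0.092 in control pools A and B and at -0.0076 and -0.069 in MB452 pools A and B. Both MB452 pools were above both control pools in the mean of the scans but not in each scan, and the difference was 0.061 (SE 0.057, adjusted p = 0.832 in limma) with an interval of -0.083 to 0.21. BSG, the chaperone that carries proton-linked monocarboxylate transporters to the membrane, was at -0.093 and 0.14 in the control pools and -0.076 and -0.17 in the MB452 pools, a difference of -0.14 (SE 0.093). None of 6 partner genes passed, and 0 were under 0.05 before adjustment in limma.

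Bile acids enter the ileal enterocyte through the apical sodium cotransporter SLC10A2 and leave it through the heteromer of SLC51A and SLC51B. SLC10A2 stood at 0.017 and -0.077 in control pools A and B and at -0.23 and -0.12 in MB452 pools A and B. The MB452 pools were below the control pools in each scan, and the difference was -0.14 (SE 0.069, adjusted p = 0.798 in limma), with an interval of -0.32 to 0.031. The high scan gave -0.21 and the low scan -0.077, and the lowest single value was the high scan of MB452 pool A at -0.34. SLC51B was at 0.11 and 0.042 in the control pools and at 0.22 and 0.078 in the MB452 pools, a difference of 0.072 (SE 0.071), with the high scan above the low scan on all 4 slides by 0.21 to 0.53. SLC51A differed by 0.025 (SE 0.073).

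Other genes of bile acid handling spread over both signs, 4 positive and 4 negative. FGF19, the enterokine that bile acids induce, was at -0.12 and -0.16 in the control pools and at -0.11 and -0.11 in the MB452 pools, a difference of 0.026 (SE 0.055). The cytosolic bile acid binding protein FABP6 was at -0.076 and 0.13 in the control pools and at -0.072 and -0.26 in the MB452 pools, a difference of -0.19 (SE 0.10). Of 8 measured partners 0 passed in limma and 1 was under 0.05 before adjustment, the apical conjugate pump ABCC2. That gene was at -0.014 and 0.0085 in the control pools and 0.28 and 0.11 in the MB452 pools. Its difference was 0.20 (SE 0.075, adjusted p = 0.757 in limma). The scans differed in size, at 0.31 (high) and 0.082 (low), and MB452 pool A read 0.46 (high) and 0.093 (low).

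Ion and water transporters had the most measured members, 8, with 4 above and 4 below 0 and a median of 0.0013. SLC26A3, the apical chloride/bicarbonate exchanger whose loss causes congenital chloride diarrhoea, stood at 0.12 and 0.16 in control pools A and B and at 0.29 and 0.23 in MB452 pools A and B. The groups did not overlap in either scan, and the difference was 0.12 (SE 0.058, adjusted p = 0.804 in limma), with an interval of -0.030 to 0.27. The high scan read above the low scan by 0.27 to 0.44 on all 4 slides, and the difference between groups was 0.14 and 0.093 in the high and low scan. SLC12A2, the basolateral sodium-potassium-chloride cotransporter that loads crypt cells with chloride, went the other way. It stood at 0.16 and 0.14 in the control pools and at 0.075 and -0.055 in the MB452 pools, without overlap in either scan, a difference of -0.14 (SE 0.067, adjusted p = 0.798). Both of its features were below 0, at -0.17 and -0.11.

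The sodium/proton exchanger SLC9A3 was at -0.14 and -0.31 in control pools A and B and at -0.30 and -0.15 in MB452 pools A and B. The order of A and B was opposite in the 2 groups, and the difference of -0.00032 (SE 0.089) sat between them. Its relative SLC9A2 was at 0.072 and 0.21 in the control pools and 0.25 and 0.072 in the MB452 pools, with the same crossing of letters and a difference of 0.022 (SE 0.088). The chloride channel CFTR differed by 0.0030 (SE 0.088), the anion exchanger SLC26A6 by 0.017, the water and glycerol channel AQP3 by -0.043 and the sodium pump subunit ATP1B1 by -0.021. ATP1B1 was read by 4 features, 3 below and 1 above 0, and 1 of them held the repeated value of the high scan on all 4 slides. Another beta subunit, ATP1B3, differed by -0.027 (SE 0.076), with 1 of its 2 features likewise at the repeated value.

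Of 21 partners in this class 0 passed in limma and 1 was under 0.05 before adjustment. This was GUCY2C, the receptor for guanylin peptides that drives chloride secretion. It stood at 0.21 and 0.15 in the control pools and at -0.040 and -0.13 in the MB452 pools, below the control pools in each scan. Its difference of -0.26 (SE 0.063, adjusted p = 0.637) was just under the fold change of 1.2.

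Metal transporters include SLC11A2, which takes up ferrous iron, SLC40A1 (ferroportin), which exports it, the transferrin receptor TFRC, the zinc importer SLC39A4, the zinc exporter SLC30A1 and the copper importer SLC31A1. The median of these 6 was 0.029, with 3 above and 3 below 0. SLC30A1 stood at -0.43 and -0.014 in control pools A and B and at 0.079 and 0.0066 in MB452 pools A and B. Control pool A was the low pool and the other 3 lay together. The difference was 0.26 (SE 0.14, adjusted p = 0.807 in limma), with an interval of -0.092 to 0.62.

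The scans of SLC30A1 disagreed. In control pool A the single SLC30A1 feature read -0.14 (high scan) and -0.71 (low scan). The difference between groups was accordingly 0.016 and 0.51 in the high and low scan, and it passed the threshold in the low scan alone (adjusted p = 0.756). SLC30A1 is a known target of MTF1 and carries the metal response cores shown above, a core found in 29.6% of all promoter windows. Any link between the cores and this difference was not tested. MTF1 itself differed by -0.028 (SE 0.076), its 2 features by -0.16 and 0.11. It was among the 18 partners in this class, of which 0 passed in limma and 0 were under 0.05 before adjustment. Without control pool B the SLC30A1 difference was 0.47 and passed (adjusted p = 0.229), in a fit where 542 genes (3.02%) passed. Without control pool A it was 0.057 and did not pass.

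**Figure D3:**
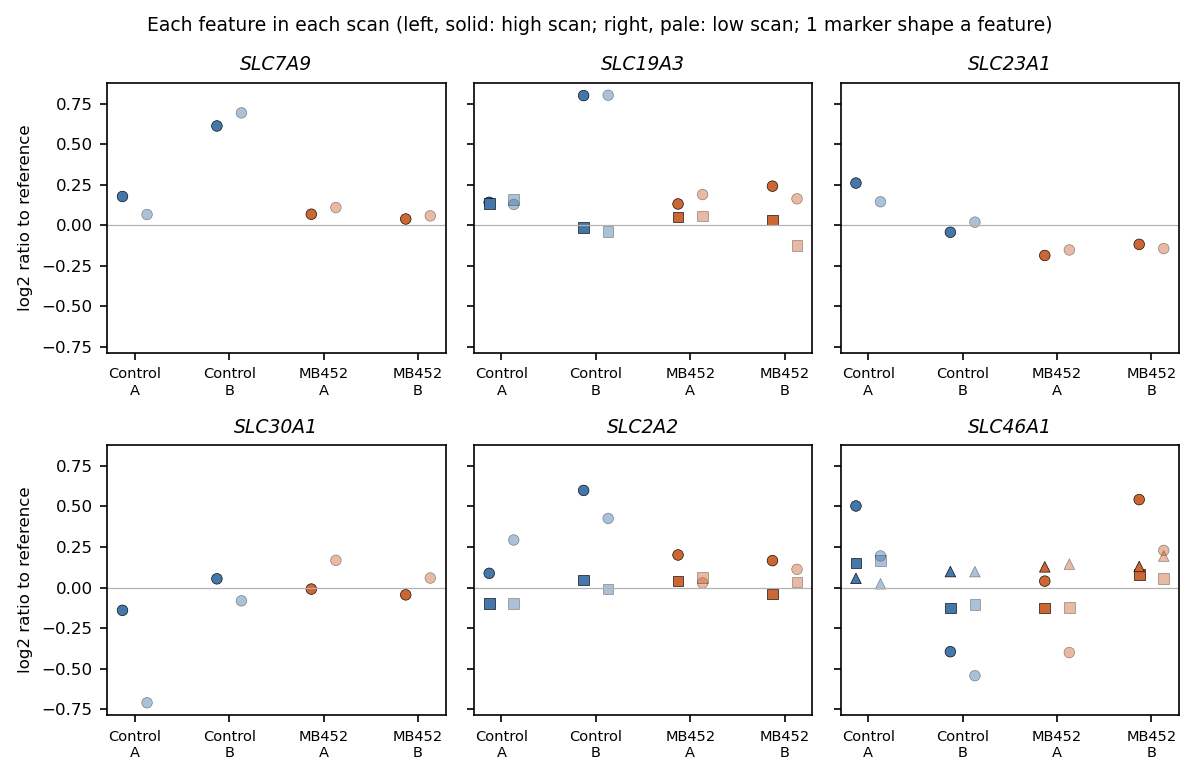
Log2 ratio to the reference (vertical axis) in each pool (horizontal axis) for every feature of 6 members, with the high scan as solid points on the left, the low scan as pale points on the right and 1 marker shape for each feature. SLC7A9 and 1 of 2 SLC19A3 features are high in both scans of control pool B, and SLC30A1 is low in the low scan of control pool A, at -0.71 against -0.14 in the high scan.

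SLC39A4 was at -0.070 and -0.11 in control pools A and B and at 0.029 and -0.049 in MB452 pools A and B, without overlap in either scan. The difference was 0.078 (SE 0.060, adjusted p = 0.822) and its interval lay within a fold change of 1.2. SLC40A1 was at -0.089 and -0.084 in the control pools and at 0.056 and -0.076 in the MB452 pools, a difference of 0.077 (SE 0.067). MB452 pool A was the high pool, and all 3 features were above 0, although 1 held the repeated value of the high scan on all 4 slides. TFRC was at -0.064 and -0.060 in the control pools and at -0.14 and -0.11 in the MB452 pools, a difference of -0.061 (SE 0.054). Its only feature was at that repeated value on every slide of the high scan, so the ratio there is not a measurement, and the low scan by itself gave -0.11. SLC11A2 differed by -0.018 over 3 features and SLC31A1 by -0.049 over 4 features, all 4 of them below 0.

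Vitamin carriers had the lowest class median, -0.12 over 4 members, 3 below and 1 above 0. SLC23A1, the sodium-dependent carrier of vitamin C in the apical membrane, stood at 0.20 and -0.012 in control pools A and B and at -0.17 and -0.13 in MB452 pools A and B. Both MB452 pools were below both control pools in each scan, and control pool A was the high pool. The difference was -0.25 (SE 0.086, adjusted p = 0.743 in limma), with an interval of -0.46 to -0.027, and the scans gave -0.26 (high) and -0.23 (low). Without control pool B it was -0.35 and passed the threshold (adjusted p = 0.261), and without control pool A it was -0.14 and did not. SLC23A1 was read by 1 feature only.

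SLC19A3, a thiamine carrier, stood at 0.14 and 0.39 in control pools A and B and at 0.11 and 0.078 in MB452 pools A and B. With its 2 features averaged the groups did not overlap, and the difference was -0.17 (SE 0.094, adjusted p = 0.807 in limma). Its 2 features, both of the same transcript, disagreed on control pool B. One was at 0.80 in both scans of that pool and between 0.13 and 0.24 elsewhere, while the other was at -0.014 and -0.037 there. In neither feature by itself did both MB452 pools lie below both control pools. The differences of the 2 features were -0.29 and -0.057. Without control pool A the gene difference was -0.30 and passed (adjusted p = 0.0814), and without control pool B it was -0.048 and did not.

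SLC19A2, the other thiamine carrier, was the only partner gene of any class that passed. It stood at 0.085 and -0.061 in control pools A and B and at 0.39 and 0.30 in MB452 pools A and B. The MB452 pools were above the control pools in each scan. The difference was 0.33 (SE 0.076, adjusted p = 0.637 in limma) from 1 feature. By scan it was 0.43 (high) and 0.23 (low), and the low value is under the fold minimum of the threshold (0.263 on the log2 scale). MB452 pool A read 0.53 (high) and 0.24 (low).

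The intestinal folate carrier SLC46A1 stood at 0.18 and -0.16 in control pools A and B and at -0.057 and 0.21 in MB452 pools A and B, a difference of 0.064 (SE 0.14). The groups overlapped fully, and most of the spread came from 1 of 3 features, which ranged from -0.54 to 0.54 over the 8 scans. The biotin and pantothenate carrier SLC5A6 differed by -0.069 (SE 0.062), with all 3 features below 0. Of 12 vitamin partners 1 rose past the threshold, SLC19A2, and 0 fell, with 1 under 0.05 before adjustment.

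**Figure D4:**
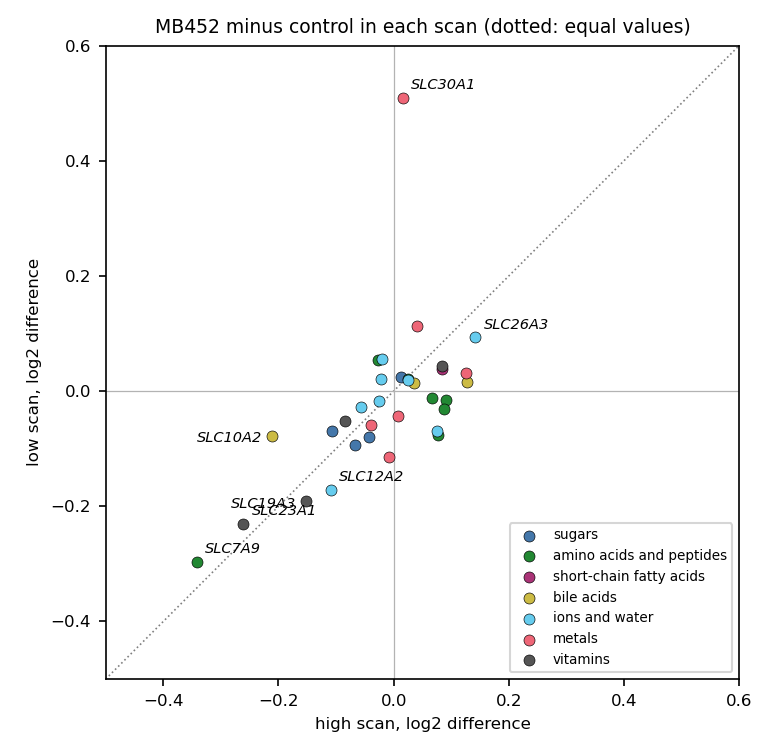
Difference between MB452 and control pools in the high scan (horizontal axis) against the low scan (vertical axis), both on the log2 scale, 1 point for each of the 33 members, coloured by class, with a dotted line where both scans are equal. SLC7A9 and SLC23A1 lie at the low end in both scans, and SLC30A1 lies far above the line at 0.51 in the low scan against 0.016 in the high scan.

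Features of 1 gene often disagreed at this size of difference. Of the 20 members with more than 1 feature, 11 had features of both signs. In all, 5 features, of SLC3A1, SLC11A2, SLC26A3, SLC46A1 and SLC51B, read higher in the high scan than in the low scan by more than 0.1 on all 4 slides, as did 4.01% of all features. Over the whole list of 98 measured partner genes, 1 was higher and 0 lower, the median difference was -0.010, and 3 were under 0.05 before adjustment. Of all genes, 1.91% passed the threshold in limma and 6.49% were under 0.05 before adjustment.

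The deposited ratios do not give levels, but in each scan many features share 1 repeated value. It is taken here as that of bright, saturated features, which was not checked against intensities. On every slide EPCAM and CDH1 were at that value in both scans. They were listed with the enterocyte markers, but they mark epithelial cells in general and not enterocytes alone. On every slide 1 of 2 features of VIL1 and of APOB was at that value in the high scan. PTPRC, CD68, COL1A1, PECAM1, CHGA and MUC2, markers of other cell types, never were. HNF4A was not analysed here, and CDX2, KRT20 and ALPI were not saturated. None of the markers passed the threshold, and those of other cell types differed by -0.091 to 0.057. Over the 33 members, the pools correlated across genes at 0.30 to 0.64, which describes pools that share a reference and genes that are not independent.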

How the data were processed

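RNA from 2 control and 2 MB452 pools, each of 3 wells, was hybridised on 4 slides. The authors quantified the scans in GenePix, applied loess within each array in limma (no version given in the submitters' processing notes) and deposited log2 ratios of Cy5, the pool, over Cy3, the reference, 1 column for each of 8 scans. The base of the logarithm, which these sources leave unstated, was taken as 2 from the size of the values. All 8 columns were used, and 0 were left out.

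Columns were centred on their medians (0.0046 to 0.017 before centring) and the scans of a slide averaged. Features with a value on all 4 slides (42142 of 44290) were averaged by gene. Gene symbols came from the platform annotation, updated by RefSeq (28992 of 29033 features with 1 symbol, 97 having several and 15160 none). Genes were fitted in limma 3.58.1 under R 4.3.3 (lmFit, eBayes, no covariate), Benjamini-Hochberg adjusted over 17969 genes. The scripts were tested on simulated data.

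Members, partner genes and markers were chosen with earlier results of these data known. All members are named, with full statistics for those whose pools did not overlap in either scan and for the largest changes of each class. No intensities were used, so signal over background is unknown, and the number of slides limits the precision.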

Additional observations from a re-analysis of the deposited data

How the results depend on the processing

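Over 18 alternative settings the 33 members gave 592 values. Of these, 542 kept their sign and their side of the threshold, 43 changed sign and 7 passed the threshold. Several settings repeat the main difference of every member by construction and could not change its sign. Among them are no fold minimum, a fold over 1.5, trended and robust variance, and the replicate block. Their unchanged values are among the 542, so that number overstates how stable the signs were. Leaving out a pool changed the sign of 4 to 9 of the 33 members. With a fold over 1.5 no member could pass, since none passed the lower fold of the main threshold. Members past it as higher numbered 1 with the low scan only and 0 to 1 when a pool was left out. Those past it as lower numbered 1 with no fold minimum, 1 under a random block for the slide and 0 to 2 when a pool was left out. Genes past it numbered 1166 with no fold minimum, 7 with a fold over 1.5, 583 with the most variable feature and 375 to 1685 when a pool was left out. For partner genes, whose alternatives were chosen after seeing the data, the count was 3 with the high scan only, 2 under a random block for the slide, 2 with quantile scaling, 3 with no fold minimum, 0 with a fold over 1.5, 2 with the most variable feature and 1 to 9 when a pool was left out. In the fit with the replicate block, 0 members, 446 genes and 2 partner genes passed. The letters A and B were not taken to pair the pools, since deviations from the group means of same-lettered pools correlated at -0.017 over 17969 genes.

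When a pool was left out, the median difference of the members ran from -0.046 to 0.0083, that of amino acid and peptide carriers from -0.028 to 0.051, that of sugar carriers from -0.14 to -0.0027, that of bile acid carriers from -0.051 to 0.039, that of metal transporters from -0.0078 to 0.054 and that of ion and water transporters from -0.046 to 0.032. The median of amino acid and peptide carriers was 0.067 with the high scan only. With features that differ between scans left out, bile acid carriers were at -0.060 and metal transporters at -0.049. The causes were not tested.

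The sign changes were in 18 members whose differences were small, and the largest value after one was 0.133 in size. With the low scan only the difference was -0.015 for SLC15A1, -0.075 for SLC3A1, -0.031 for SLC1A1, -0.012 for SLC36A1, 0.021 for SLC9A3 and -0.070 for CFTR. With the high scan only it was -0.027 for SLC6A14, -0.020 for SLC26A6 and 0.0076 for SLC11A2. Quantile scaling gave -0.010 for SLC1A1 and -0.023 for CFTR, no median centring gave 0.0030 for SLC9A3, and leaving out features that differ between scans gave -0.073 for CFTR. The most variable feature gave -0.011 for SLC51A and 0.074 for ATP1B1, and the median over features gave 0.0083 for SLC11A2 and -0.0030 for SLC46A1. Leaving out a pool at a time gave ranges of -0.16 to 0.038 for SLC5A1, -0.19 to 0.029 for SLC2A2, -0.13 to 0.17 for SLC2A3, -0.039 to 0.065 for SLC6A14, -0.053 to 0.055 for SLC3A1, -0.079 to 0.14 for SLC1A1, -0.028 to 0.082 for SLC36A1, -0.051 to 0.10 for SLC51A and -0.020 to 0.055 for SLC26A6. They were -0.087 to 0.087 for SLC9A3, -0.069 to 0.11 for SLC9A2, -0.087 to 0.093 for CFTR, -0.051 to 0.0083 for ATP1B1, -0.11 to 0.021 for AQP3, -0.12 to 0.016 for SLC31A1 and -0.11 to 0.24 for SLC46A1.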
